A study of Mus musculus with 4 samples.

Results

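The ATF4 stress response and the amino-acid uptake it is coupled to were followed in LSK cells (Lin−Sca-1+c-Kit+), the fetal liver fraction in which hematopoietic stem cells (HSCs) are enriched. The set held 10 genes of the 39186 in the deposited table, namely *Atf4*, *Atf5*, *Ddit3*, *Asns*, *Chac1*, *Trib3*, *Sesn2*, *Slc7a5*, *Slc3a2* and *Slc1a5*, each found by its gene symbol. All 10 were measured in all 4 samples and passed the filter on low values. RNA of LSK cells sorted from the livers of mid-gestation C57BL/6 embryos was sequenced in 2 *Pich*-KO and 2 *Pich*-WT samples. *Pich* encodes a DNA translocase of mitotic cells, and the *Pich*-KO line carries a small TALEN-made deletion at the start of exon 2 in the whole animal. The labels state neither how many embryos made up a sample nor whether the samples came from separate animals, so p-values measure the spread between these samples only.

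The integrated stress response begins when a kinase phosphorylates the alpha subunit of the translation factor eIF2. Most translation then falls, while the *Atf4* mRNA is translated more, and the ATF4 protein switches on genes for amino-acid synthesis, amino-acid import and, under lasting stress, cell death. In the mouse fetal liver, ATF4 is known to be needed for the expansion of HSCs. The data are mRNA levels, and neither ATF4 protein nor eIF2 phosphorylation was measured.

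*Atf4* and *Slc7a5*, the light chain of the large neutral amino-acid transporter, were higher in *Pich*-KO than in *Pich*-WT LSK cells, by 1.35-fold and 1.48-fold. The other 8 genes did not pass the test, and none of the 10 was lower. The classical stress effectors *Ddit3*, *Trib3* and *Sesn2* had log2 fold changes of -0.04, 0.37 and 0.14, with intervals that span 0. *Chac1* had the largest log2 fold change of the set, 1.11, and the lowest counts. Its interval, 0.30 to 1.91, lay above 0, but its limma adjusted p was 0.0695. *Chac1* passed with edgeR (adjusted p = 0.0394) and with limma on genes with at least 10 reads in every sample (0.0268). It did not pass with DESeq2 (adjusted p = 0.112) or the replicate block in limma (0.0534). Around the set, 4 of 11 genes of amino-acid and one-carbon synthesis (*Phgdh*, *Psat1*, *Shmt2* and *Mthfd2*) were higher. So were the kinase gene *Eif2ak2* and the cationic amino-acid transporter gene *Slc7a1*, while *Cebpb*, *Gdf15*, *Slc7a7* and *Slc7a8* were lower. Over all 22 other known ATF4 targets tested, 5 were higher and 4 lower. Of all genes with mean levels within the range of the 10, 17.8% were higher and 22.6% lower.

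ATF4 binds the C/EBP-ATF response element, and 3 of the set's promoters carry its letters. The window searched ran from 250 bases before to 50 bases after the start of each RefSeq gene on GRCm38.p6. TGATGNAA or its reverse complement TTNCATCA was found in 3 of 9 windows of 8 genes, against 3.97% of all 32851 windows of that length. *Atf5* has 2 windows, and no window was at hand for *Slc7a5* and *Slc1a5*. The cAMP response element TGACGTCA, which reads the same on both strands, was in 0 of the 9 windows and in 1.79% of all windows. With no match of the cAMP response element in these windows, matches of the motifs could not overlap each other. These 3 stretches are shown because they hold the element, which stands in capitals, and each is written 5′ to 3′ along the strand of its gene. The *Asns* stretch is the minus strand of chr6:7693210-7693459, the *Chac1* stretch the plus strand of chr2:119350992-119351241, and the *Trib3* stretch the minus strand of chr2:152344028-152344057.
Asns: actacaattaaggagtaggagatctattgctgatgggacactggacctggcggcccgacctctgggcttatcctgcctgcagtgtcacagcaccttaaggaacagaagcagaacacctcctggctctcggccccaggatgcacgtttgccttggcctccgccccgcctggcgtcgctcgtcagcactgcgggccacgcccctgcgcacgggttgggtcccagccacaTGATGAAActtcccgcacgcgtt
Chac1: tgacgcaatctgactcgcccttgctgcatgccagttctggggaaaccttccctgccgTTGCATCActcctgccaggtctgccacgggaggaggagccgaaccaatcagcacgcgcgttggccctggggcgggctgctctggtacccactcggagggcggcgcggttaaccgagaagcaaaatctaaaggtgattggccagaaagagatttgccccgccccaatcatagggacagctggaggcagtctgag
Trib3: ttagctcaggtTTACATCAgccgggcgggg
In *Asns* the element reads along the gene and begins 23 bases before the start. In *Chac1* it lies on the opposite strand, 193 bases before the start. In *Trib3* it is also on the opposite strand, and begins 15 bases after the start. These starts are those of RefSeq and differ from where the gene models given below begin. By those models the *Asns* element lies inside the gene, and the *Trib3* element just outside it. A match is a description of letters, not a measured site of binding. None of these 3 genes passed the test between the groups.

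Between 14703215 and 20933919 reads fell on genes in each library, and counts were normalized by a single size factor per sample. The *Pich* gene, listed as *Ercc6l*, had normalized counts of 772 and 661 in *Pich*-WT, and was higher with *Pich* knocked out, at 1142 and 1232 (log2 fold change 0.73, limma adjusted p = 0.00887). Reads of the allele with the small deletion are still counted, so this level does not check the genotype labels. Of the LSK and stem cell markers, *Ly6a*, the gene of Sca-1, was higher, *Gata2*, *Mecom* and *Hlf* were lower, and *Kit* did not pass the test (log2 fold change 0.54, adjusted p = 0.114 from limma). All 11 macrophage, all 7 erythroid, all 6 endothelial and 4 of 8 hepatoblast markers were lower in *Pich*-KO samples. Summed macrophage marker counts were 8000 to 9136 in *Pich*-KO and 57887 to 59214 in *Pich*-WT samples, and endothelial ones 646 to 1359 and 17146 to 25808. The erythroid sums were 26034 to 28534 against 116159 to 153424, and the hepatoblast sums 2526 to 3035 against 4059 to 4612, with no marker of any list at 0 in every sample. In bulk samples, fewer cells of a type and less RNA per cell cannot be told apart. Their part in the results was not tested. *Pich*-WT sample 2 stands apart in sex, with 0 reads on 4 Y-linked genes and 699 on *Xist*. The other 3 samples had 1607 to 2848 Y-linked reads.

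The comparison between *Pich*-KO and *Pich*-WT asks how loss of *Pich* is associated with gene expression in LSK cells. Log2 fold changes are *Pich*-KO minus *Pich*-WT on the scale of log2(normalized count + 1), tested with limma and Benjamini-Hochberg adjustment over 32428 genes at a threshold of 0.05. Over all genes tested, 7.58% were higher and 9.6% lower in *Pich*-KO. Among the 11820 genes with mean levels within the range of the 10 genes, 39.7 to 5566 normalized counts, 17.8% were higher and 22.6% lower. The pathway lists below also hold genes outside that range, so this background matches those lists only in part. The set's share of higher calls, 2 of 10, stood close to that background. It held 0 lower calls, also at an unadjusted p under 0.05 and with edgeR and DESeq2. Its median log2 fold change was 0.26, beside 0.02 over all genes and -0.00062 in the same range of levels, and 8 of its 10 changes were positive. The groups did not overlap for 9 of the 10 genes, with *Slc1a5* as the exception, but neither did they for 56.1% of all genes and 78.3% of genes in that range.

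**Figure D1:**
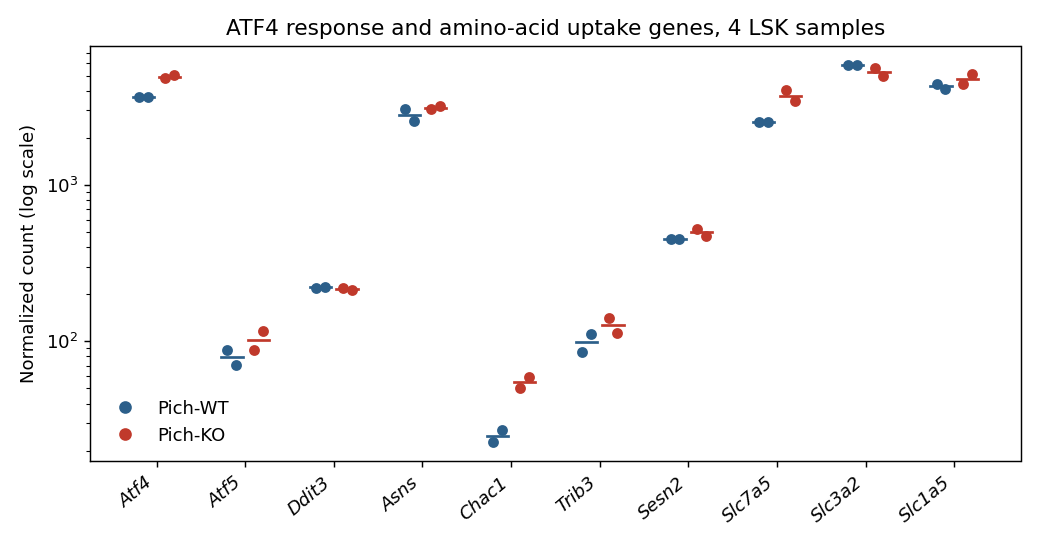
Normalized counts (log scale) of the 10 genes in each sample, with *Pich*-WT in blue and *Pich*-KO in red, and a line at each group mean. The *Pich*-KO points of *Atf4* (4813 and 5057) and *Slc7a5* (4036 and 3418) sit above both *Pich*-WT points, while those of *Ddit3* lie within 214 to 224 in all 4 samples.

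Among the transcription factors, *Atf4* itself was among the most abundant transcripts of the set. *Atf4* (ENSMUSG00000042406, GRCm38 chromosome 15 from 80255184 to 80257541, plus strand) had normalized counts of 4813 and 5057 in *Pich*-KO samples 1 and 2, and 3662 and 3656 in *Pich*-WT samples 1 and 2. Both *Pich*-KO samples were above both *Pich*-WT samples, and the *Pich*-WT samples lay close together. The log2 fold change was 0.43 (SE 0.09, 95% interval 0.23 to 0.63, limma adjusted p = 0.0113). Each limma fit that left out a sample called 0 genes of any kind, with 5757 to 8599 at an unadjusted p under 0.05, whereas edgeR called 4012 to 7602. With edgeR on the recovered reads, *Atf4* passed without either *Pich*-KO sample but not without *Pich*-WT sample 1 (log2 fold change 0.44, adjusted p = 0.0687) or *Pich*-WT sample 2 (0.46, adjusted p = 0.0579).

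*Atf5* encodes a related bZIP factor whose mRNA is also translated more under stress. It lies on chromosome 7 from 44812256 to 44816658 on the minus strand (ENSMUSG00000038539) and had normalized counts of 88.3 and 116 in *Pich*-KO, compared with 87.5 and 71.0 in *Pich*-WT samples. The groups were separated by less than 1 normalized count at their nearest samples, and the log2 fold change of 0.36 (SE 0.28, limma adjusted p = 0.473) did not pass the test. Without *Pich*-WT sample 2 it was 0.21 in limma. *Atf5* shares 571 bases with *Nup62* on the other strand, which had 4498 to 6178 normalized counts, and the library kit does not mark strand, so reads from the shared part cannot be told apart.

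*Ddit3* encodes CHOP, the factor through which lasting stress of the endoplasmic reticulum (ER) promotes cell death. The gene is on chromosome 10 from 127290774 to 127296288, plus strand (ENSMUSG00000025408). Its normalized counts were 219 and 214 in *Pich*-KO samples, against 220 and 224 in *Pich*-WT samples, so all 4 samples were nearly level. The log2 fold change was -0.04 (95% interval -0.47 to 0.40, limma adjusted p = 0.929), an interval that reaches 0.721-fold and 1.32-fold, and its sign turned in some edgeR fits that left out a sample. *Ddit3* shares 68 bases with *Mars*, the methionyl-tRNA synthetase gene on the other strand, with 4982 and 4987 normalized counts in *Pich*-KO, compared with 3300 and 3086 in *Pich*-WT samples. Per base, *Atf4* stood 15.9 and 17.2 times above *Ddit3* in *Pich*-KO samples, against 12.1 and 11.9 times in *Pich*-WT samples. The exact two-sided permutation test of that ratio gave p = 0.333, the smallest that 2 samples against 2 allow.

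*Asns*, *Chac1*, *Trib3* and *Sesn2* are known targets of ATF4. None of them passed the test. Each had a positive log2 fold change, as did 49.97% of genes at the levels of the set. Their groups did not overlap, which by itself held for 78.3% of genes at those levels. *Asns* encodes asparagine synthetase and was the most abundant of them. This gene (ENSMUSG00000029752, chromosome 6 from 7675169 to 7693254, minus strand) had normalized counts of 3062 and 3190 in *Pich*-KO samples, against 3053 and 2549 in *Pich*-WT samples. The *Pich*-KO samples were almost level with *Pich*-WT sample 1, and *Pich*-WT sample 2 was the low one. The log2 fold change was 0.16 (SE 0.11, 95% interval -0.10 to 0.43, limma adjusted p = 0.417), and 0.03 in limma without *Pich*-WT sample 2.

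*Chac1*, which encodes a glutathione-degrading enzyme, had the largest fold change of the set and the lowest counts. The gene (ENSMUSG00000027313) is on chromosome 2 from 119351229 to 119354381, plus strand. Its normalized counts were 50.2 and 59.1 in *Pich*-KO, compared with 22.7 and 27.0 in *Pich*-WT samples, from 46, 52, 29 and 27 reads. Means were 54.6 ± 6.32 and 24.8 ± 3.07 (SD, n = 2 each), a ratio of 2.20. The log2 fold change of 1.11 (SE 0.35, 95% interval 0.30 to 1.91) had a limma adjusted p of 0.0695. *Chac1* passed the threshold with edgeR (1.16, adjusted p = 0.0394), and with limma when genes had to have at least 10 reads in every sample (adjusted p = 0.0268). It did not pass with DESeq2 (adjusted p = 0.112), the replicate block (0.0534), a pseudocount of 0.1 (0.0741) or TMM scaling in limma (0.0697). Among the edgeR fits that left out a sample, it passed only in the one without *Pich*-KO sample 1 (adjusted p = 0.0349).

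*Trib3*, a pseudokinase gene whose product restrains ATF4, is on the same chromosome from 152337422 to 152344032, minus strand (ENSMUSG00000032715). Its normalized counts were 142 and 114 in *Pich*-KO samples, against 85.2 and 112 in *Pich*-WT samples. *Pich*-KO sample 2 and *Pich*-WT sample 2 were nearly level, and the log2 fold change of 0.37 (SE 0.26, limma adjusted p = 0.422) did not pass. Without *Pich*-WT sample 2 it was 0.57 in limma. *Sesn2* encodes a leucine sensor that restrains the growth kinase complex mTORC1, and lies on chromosome 4 from 132492032 to 132510501, minus strand (ENSMUSG00000028893). It had normalized counts of 526 and 469 in *Pich*-KO, compared with 454 and 449 in *Pich*-WT samples, with a log2 fold change of 0.14 (SE 0.15, limma adjusted p = 0.632). *Pich*-KO sample 1 was the only sample of *Sesn2* that stood clear of the other 3.

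**Figure D2:**
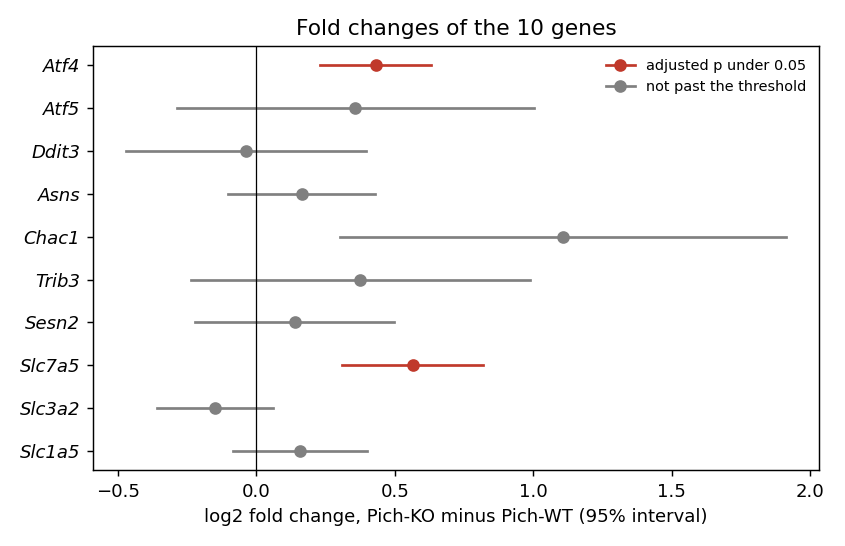
Log2 fold changes of the 10 genes, *Pich*-KO minus *Pich*-WT, with 95% intervals from limma. *Atf4* (0.43) and *Slc7a5* (0.56), in red, passed the threshold. The interval of *Chac1* (0.30 to 1.91) is the widest and lies above 0, and the other 7 intervals cross 0.

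Of the amino-acid transporters, *Slc7a5* was higher while its partner *Slc3a2* was not. SLC7A5, also called LAT1, imports leucine and other large neutral amino acids, and SLC3A2 is the heavy chain that carries it to the cell surface. *Slc7a5* (ENSMUSG00000040010, chromosome 8 from 121881150 to 121907694, minus strand) had normalized counts of 4036 and 3418 in *Pich*-KO samples, against 2513 and 2508 in *Pich*-WT samples. Both *Pich*-KO samples were well above the *Pich*-WT samples, which were level with each other. The log2 fold change was 0.56 (SE 0.11, 95% interval 0.31 to 0.82, limma adjusted p = 0.00968). It passed in each of the 4 edgeR fits that left out a sample, with log2 fold changes of 0.48 to 0.72 and 0.0351 as the highest adjusted p.

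*Slc3a2* (ENSMUSG00000010095, chromosome 19 from 8706882 to 8723369, minus strand) had normalized counts of 5584 and 4979 in *Pich*-KO, compared with 5864 and 5839 in *Pich*-WT samples. The *Pich*-WT samples were the high ones here, but the log2 fold change of -0.15 (SE 0.09, 95% interval -0.36 to 0.06, limma adjusted p = 0.333) did not pass. Per base, the light chain stood at 0.688 and 0.653 of the heavy chain in *Pich*-KO samples 1 and 2, and at 0.408 and 0.409 in *Pich*-WT samples 1 and 2. The ratio was 0.671 ± 0.0243 against 0.408 ± 0.000693 (SD, n = 2 each). The groups did not overlap, and the exact two-sided permutation test gave p = 0.333, the smallest possible.

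*Slc1a5* encodes ASCT2, a glutamine transporter, on chromosome 7 from 16781340 to 16798274, plus strand (ENSMUSG00000001918). Its normalized counts were 4412 and 5114 in *Pich*-KO samples, against 4449 and 4078 in *Pich*-WT samples. *Pich*-KO sample 1 lay within the range of the *Pich*-WT samples, and the log2 fold change of 0.16 (SE 0.10, 95% interval -0.08 to 0.40, limma adjusted p = 0.389) did not pass. With edgeR it passed without *Pich*-KO sample 1 (log2 fold change 0.29, adjusted p = 0.0148) but not without *Pich*-KO sample 2 (0.09, adjusted p = 0.482), *Pich*-WT sample 1 (0.23, adjusted p = 0.356) or *Pich*-WT sample 2 (0.13, adjusted p = 0.62). The limma value without *Pich*-WT sample 2 was 0.09.

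Between genes, levels were compared as normalized counts per kb of the gene length given in the table. In *Pich*-WT samples the order was *Slc3a2* (mean 1658 per kb), *Atf4* (1552), *Asns* (1024), *Slc1a5* (1022) and *Slc7a5* (677), far above *Sesn2* (130), *Ddit3* (130), *Trib3* (46.4), *Atf5* (39.8) and *Chac1* (15.2). In *Pich*-KO samples *Atf4* (2093 per kb) stood above *Slc3a2* (1497), in both samples. *Slc7a5* (1005 per kb) came within the range of *Slc1a5* (1141), since *Slc7a5* in sample 1 (1088) exceeded *Slc1a5* in that sample (1057). *Asns* and *Slc1a5* overlapped in their samples in both groups, as did *Trib3* and *Atf5* in *Pich*-KO and in *Pich*-WT samples. *Sesn2* and *Ddit3* overlapped in *Pich*-WT samples only. In both groups *Chac1* stayed below *Atf5* in every sample.

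Upstream of ATF4, 17 genes of the control of eIF2 were tested, and 7 were higher and 1 lower, with a median log2 fold change of 0.39, beside 17.8% higher and 22.6% lower among genes at the levels of the set. Of the 4 eIF2 kinase genes, *Eif2ak2*, which encodes the interferon-induced kinase PKR that senses double-stranded RNA, was higher. Its normalized counts were 1442 and 1319 in *Pich*-KO, compared with 384 and 374 in *Pich*-WT samples (log2 fold change 1.86, SE 0.14, limma adjusted p = 0.000117). *Eif2ak1*, which encodes the heme-regulated kinase HRI of the erythroid lineage, was lower, with 2018 and 1813 against 2752 and 2551 (-0.47, SE 0.11, limma adjusted p = 0.0218). With edgeR this call was lost without *Pich*-WT sample 1 (-0.40, adjusted p = 0.127) and without *Pich*-WT sample 2 (-0.49, adjusted p = 0.0653). The erythroid markers were lower too, 7 of 7, as were 11 of 11 macrophage, 6 of 6 endothelial and 4 of 8 hepatoblast markers. Ter119, an erythroid antigen, was among the lineage antigens stained in the study's sorts. The part of any of these cells in the *Eif2ak1* level was not tested. *Eif2ak4*, the gene of GCN2, which senses uncharged tRNA, had 1068 and 873 against 723 and 728 (0.41, adjusted p = 0.104). *Eif2ak3*, the gene of the ER stress kinase PERK, had 363 and 380 against 590 and 483 (-0.52, adjusted p = 0.0765). Neither passed.

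The phosphatase that removes the phosphate from eIF2 has a stress-induced and a constitutive regulatory subunit. *Ppp1r15a*, the gene of the stress-induced subunit GADD34 and itself an ATF4 target, had normalized counts of 6317 and 5315 in *Pich*-KO samples, against 6465 and 6427 in *Pich*-WT samples (log2 fold change -0.15, limma adjusted p = 0.38). The constitutive subunit gene *Ppp1r15b* was higher, with 2104 and 2291 against 961 and 978 (1.18, SE 0.11, limma adjusted p = 0.000392). None of the 3 catalytic subunit genes passed. Of the 8 subunit genes of eIF2 and of its exchange factor eIF2B, 5 were higher, beside 17.8% of genes at the levels of the set. *Eif2s1*, the gene of the phosphorylated alpha subunit itself, led them. It had 7253 and 7920 against 4717 and 4066 normalized counts (0.79, limma adjusted p = 0.00135). The X-linked gene *Eif2s3x* did not pass, and its highest value, 2290, was in *Pich*-WT sample 2, which stands apart in sex. With edgeR 9 genes of the eIF2 list were higher and 2 lower, beside 3097 higher and 3436 lower of all 16608 genes it tested. In edgeR fits without either *Pich*-WT sample fewer genes were called, in this list and over all genes.

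**Figure D3:**
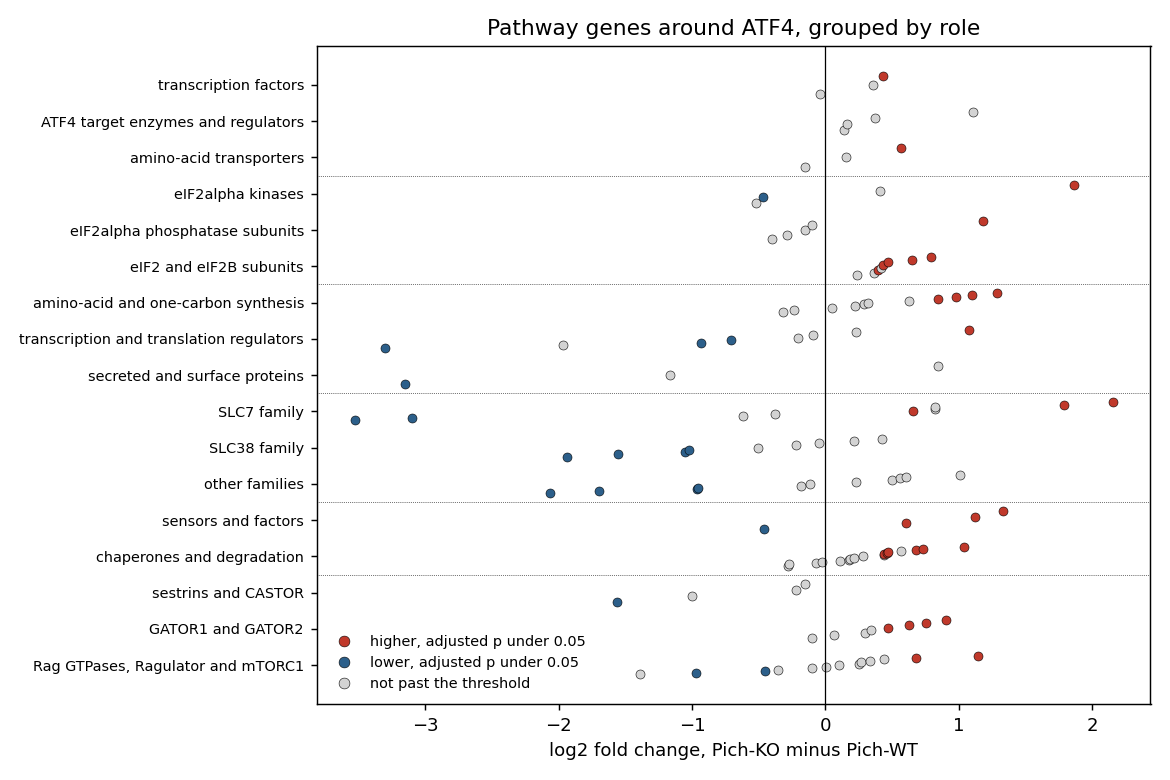
Log2 fold changes, *Pich*-KO minus *Pich*-WT, of the 10 genes (top 3 rows) and of the listed pathway genes around them, 1 point per gene, with the roles in rows. Red and blue points passed the threshold as higher and lower. Synthesis genes reach 1.29 on the higher side, while the SLC7 family spans from -3.53 to 2.15.

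Beyond the set, 22 other known ATF4 targets were tested, and 5 were higher and 4 lower, with a median log2 fold change of 0.14. *Fgf21* did not match a row. These shares stood close to those of genes at the levels of the set, 17.8% higher and 22.6% lower, though some targets, such as *Phgdh*, lie outside those levels. Of 11 genes of amino-acid and one-carbon synthesis, 4 were higher and 0 lower (1 lower at an unadjusted p under 0.05, 0 with edgeR). *Phgdh*, the gene of the entry enzyme of serine synthesis, had normalized counts of 16462 and 16744 in *Pich*-KO, compared with 6742 and 6883 in *Pich*-WT samples (log2 fold change 1.29, SE 0.07, limma adjusted p = 4.13e-05). *Psat1*, the gene of the next enzyme, had 5402 and 5292 against 2794 and 2630 (0.98, adjusted p = 0.00031), whereas *Psph*, the gene of the last enzyme of that route, had a log2 fold change of 0.05 (adjusted p = 0.863). The genes of the mitochondrial folate enzymes *Shmt2* and *Mthfd2* were higher, with log2 fold changes of 0.85 and 1.10. In these 4 genes, named because they passed the test, every *Pich*-KO sample was above every *Pich*-WT sample. That follows largely from passing the test and adds no support. Groups did not overlap for 56.1% of all genes and 78.3% of genes at the levels of the set.

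The 8 transcription and translation regulators held 3 lower genes and 1 higher, beside 17.8% higher and 22.6% lower among genes at the levels of the set. The higher one was *Xpot*, the gene of the exportin that takes tRNA out of the nucleus (log2 fold change 1.07, limma adjusted p = 0.000654). *Cebpb*, which encodes a bZIP partner of ATF4 that macrophages also express, had normalized counts of 79.6 and 72.8 in *Pich*-KO samples, against 1390 and 417 in *Pich*-WT samples (-3.31, SE 0.48, adjusted p = 0.00239). The *Pich*-WT samples differed widely from each other for this gene, yet both were far above the *Pich*-KO samples. *Cebpg* (-0.71, adjusted p = 0.0129) and *Atf3* (-0.93, adjusted p = 0.034) were lower as well. *Gdf15*, the gene of a secreted stress hormone, was lower, with 14.2 and 17.1 against 113 and 190 normalized counts (-3.15, adjusted p = 0.000886). Macrophage and endothelial markers were lower as well, 11 of 11 and 6 of 6 of them, as were 7 of 7 erythroid and 4 of 8 hepatoblast markers. The part of those cells in the lower genes was not tested. The response element was in 7 of 25 promoter windows, which covered 20 of the 23 targets listed, *Fgf21* among them. The genes that hold it include *Atf3*, *Nupr1*, *Pck2*, *Pycr1* and *Fgf21*, which was not tested. No window at hand for the 5 higher genes holds it.

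Of 29 other amino-acid transporter genes, 3 were higher and 10 lower, with a median log2 fold change of -0.18. The 3 higher ones belong to the SLC7 family, like *Slc7a5*, but edgeR called 5 higher, adding *Slc1a3* (log2 fold change 1.06, adjusted p = 0.0406) and *Slc16a10* (0.52, adjusted p = 0.031) of other families. Of genes at the levels of the set, 17.8% were higher and 22.6% lower. *Slc7a1*, the gene of the main importer of arginine and lysine, had normalized counts of 2370 and 1760 in *Pich*-KO, compared with 471 and 446 in *Pich*-WT samples (log2 fold change 2.15, SE 0.17, limma adjusted p = 0.000142). Its mean was 4.50-fold higher. *Slc7a3*, a related cationic transporter gene, had 32.7 and 44.3 against 13.3 and 8 (1.79, adjusted p = 0.033). *Slc7a6* had 2149 and 1785 against 1187 and 1305 (0.65, adjusted p = 0.0116).

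*Slc7a6* encodes a light chain that pairs with SLC3A2, as do *Slc7a7* and *Slc7a8*, and those of the latter pair were lower. *Slc7a7* had normalized counts of 96.0 and 80.7 in *Pich*-KO samples, against 1046 and 1010 in *Pich*-WT samples (log2 fold change -3.53, SE 0.18, limma adjusted p = 3.37e-05). *Slc7a8* had 459 and 255 against 2756 and 3141 (-3.10, SE 0.25, adjusted p = 0.000177). Per kb, *Slc7a8* (589) stood not far below *Slc7a5* (677) in *Pich*-WT samples, and at 71.3 against 1005 in *Pich*-KO samples. *Slc7a11*, the gene of the cystine importer and a known ATF4 target, had 80.7 and 71.6 against 41.4 and 44 (0.82, adjusted p = 0.106). The macrophage, endothelial, erythroid and hepatoblast marker sums given above were lower in *Pich*-KO samples as well. The part of those cells in the lower SLC7 genes was not tested.

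The SLC38 family of neutral amino-acid transporters held 4 lower genes of 9 and 0 higher (1 at an unadjusted p under 0.05, 0 with edgeR), from *Slc38a7* (log2 fold change -1.02) to *Slc38a4* (-1.94). *Slc38a2*, the member known to respond to amino-acid starvation through ATF4, had a log2 fold change of -0.05 (limma adjusted p = 0.837). Among 11 genes of other families, 4 were lower, with *Slc1a2*, a glutamate transporter gene, at -2.07. Of genes at the levels of the set, 17.8% were higher and 22.6% lower. The leucine transporter gene *Slc43a2* was also lower, with 567 and 483 normalized counts in *Pich*-KO, compared with 1704 and 1701 in *Pich*-WT samples (-1.70, limma adjusted p = 0.000173). Over the 29 transporter genes edgeR called 5 higher and 10 lower, beside 3097 higher and 3436 lower of all 16608 genes it tested. Without *Pich*-WT sample 2 it called fewer, in this list and over all genes.

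**Figure D4:**
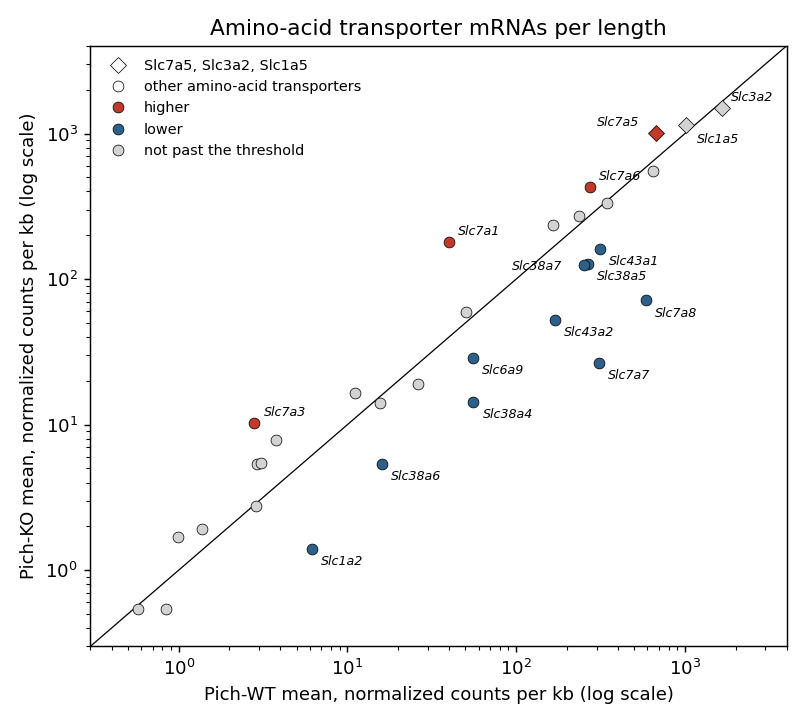
Mean normalized counts per kb (both axes log scale) of the amino-acid transporter genes in *Pich*-WT and *Pich*-KO samples, with the line of equal levels. *Slc7a5* (677 in *Pich*-WT, 1005 in *Pich*-KO) and *Slc7a1* (39.8 and 179) lie above the line, *Slc3a2* and *Slc1a5* near it, and *Slc7a7* (310 and 26.7) and *Slc7a8* (589 and 71.3) far below it.

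The ER stress response has further branches that run through IRE1 and ATF6 rather than through eIF2. Of 21 genes tested from them, 9 were higher and 1 lower, with a median log2 fold change of 0.44, beside 17.8% higher and 22.6% lower among genes at the levels of the set. The sensor genes *Atf6* (log2 fold change 1.33, SE 0.13, limma adjusted p = 0.000412) and *Ern1*, which encodes IRE1 (1.12, adjusted p = 0.00518), were higher. *Xbp1*, whose mRNA IRE1 splices, was lower, with 2228 and 2459 normalized counts in *Pich*-KO samples, against 3340 and 3103 in *Pich*-WT samples (-0.46, adjusted p = 0.0192). The counts do not tell its spliced from its unspliced form. Of 17 chaperone and degradation genes, 6 were higher and 0 lower (1 lower at an unadjusted p under 0.05, 0 with edgeR), including *Hspa5*, the gene of the main ER chaperone BiP (0.47, adjusted p = 0.00618), and *Hyou1* (1.04, adjusted p = 0.00421). *Dnajb9* and *Herpud1* had log2 fold changes of -0.07 and -0.28 and did not pass. With edgeR 12 genes of these branches were higher and 1 lower, beside 3097 higher and 3436 lower of all 16608 genes it tested. Without *Pich*-WT sample 1 or sample 2 edgeR called fewer, in these branches and over all genes. *Xbp1* lost its call in both fits (log2 fold changes -0.39 and -0.48).

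Amino acids that enter the cell are sensed by mTORC1 through the sestrins, CASTOR proteins, GATOR complexes and Rag GTPases. Of 25 such genes, 6 were higher and 3 lower, with a median log2 fold change of 0.10, beside 17.8% higher and 22.6% lower among genes at the levels of the set. With edgeR 8 were higher and 6 lower, beside 3097 higher and 3436 lower of all 16608 genes it tested. Without *Pich*-WT sample 1 or sample 2 edgeR called fewer, in this list and over all genes. *Sesn1*, a sestrin gene known as a p53 and FOXO target, was lower, with normalized counts of 1178 and 905 in *Pich*-KO, compared with 3021 and 3094 in *Pich*-WT samples (-1.57, SE 0.14, limma adjusted p = 0.000294). *Sesn3* (-0.15, adjusted p = 0.766) did not pass, nor did *Sesn2* of the set. *Sesn1* stood at 768 normalized counts per kb in *Pich*-WT and 262 in *Pich*-KO samples, and *Sesn2* at 130 and 143. The kinase gene *Mtor* was higher, with 533 and 463 against 230 and 219 (1.14, adjusted p = 0.00312), as were 4 of 8 GATOR genes, led by *Depdc5* (0.91). *Rragc*, the gene of a Rag GTPase, was lower (-0.97, adjusted p = 0.0013).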

How the data were processed

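The authors deposited 1 table of 39186 genes in which, per the file headers, each of the 4 samples has a column of normalized counts. The authors made this signal by dividing the reads on a gene by a size factor per sample, before it was deposited. In every sample 100% of values were whole multiples of a single step (tolerance 0.01), which gave back the reads, and no column of per-sample values was left unmapped. Fold changes and p-values of the authors' own comparison are in the table and were not used. The submitters' processing notes name Bowtie 0.12.2 and the builds mm8 and mm9 without a role. Coordinates in the table equal those of GENCODE M21 on GRCm38 for 97.8% of 39131 genes found there and for all 10 genes of the set, and are given on that build. How reads were counted is not given in the sources used here.

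Genes with a mean normalized count of at least 1 (32428) were tested with limma 3.58.1 in R 4.3.3, on log2(normalized count + 1) with a trended prior variance, group as the only term and Benjamini-Hochberg adjustment. Tests were checked on simulated data in which few genes changed, each by more than *Atf4* or *Slc7a5* did here. That check does not cover changes as small as theirs. The study's text describes no test for these libraries. Alternatives were a pseudocount of 0.1, other filters, TMM scaling, no variance trend, a replicate block, edgeR 4.0.16 and DESeq2 1.42.0 on the recovered reads, and leaving out each sample. The edgeR fits without a sample were chosen after seeing the data.

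Replicates varied beyond the noise of sampling (chi-square per degree of freedom 17.7 for *Pich*-KO and 9.54 for *Pich*-WT), so each counted as 1 replicate. Depth on genes was 14703215 to 20933919 reads, and low genes such as *Chac1* carry the widest error. The set, the pathway lists and the markers were chosen with earlier results of these data known. Named are all 10 genes. From the other lists these are the genes past the threshold with the largest and smallest change, the eIF2 kinases and phosphatase regulatory subunits, and synthesis, SLC7 and sestrin genes past the threshold. Other genes in the text were named for their known role or after their values were seen. Promoter windows were taken from RefSeq on GRCm38.p6, with 8 of the 10 genes matched. Levels per kb use the gene length in the deposited table.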

Additional observations from a re-analysis of the deposited data

How the results depend on the processing

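Log2 fold changes of the 10 genes kept their sign in every alternative, except that of *Ddit3*, which was 0.0189 without *Pich*-KO sample 2 and 0.0058 without *Pich*-WT sample 2 in edgeR. *Atf4* and *Slc7a5* remained past the threshold with a pseudocount of 0.1, other filters, TMM scaling, edgeR, DESeq2 and the replicate block, and *Chac1* joined them with at least 10 reads in every sample and with edgeR. The limma calls rest on the variance trend. Without it limma called 0 genes, with adjusted p = 0.319 for *Atf4* and 0.261 for *Slc7a5*, and 0 genes in every list, although 7377 genes had an unadjusted p under 0.05, and edgeR called 6533. Limma without any 1 sample also called 0 genes (5757 to 8599 with an unadjusted p under 0.05), in which the lone sample of a group is assumed to vary like the other group, and edgeR without a sample called 4012 to 7602 against 5572 in the full limma fit.

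Over all fits without a sample, the genes of the set called higher ranged from 0 to 4, the 4 being without *Pich*-KO sample 1 in edgeR, and 1 without either *Pich*-WT sample. Higher and lower calls ranged from 0 to 3685 and 0 to 3917 over all genes, 0 to 9 and 0 to 4 for eIF2 control, 0 to 8 and 0 to 5 for the other ATF4 targets, 0 to 5 and 0 to 11 for the other transporters, 0 to 15 and 0 to 2 for the IRE1 and ATF6 branches, and 0 to 10 and 0 to 5 for mTORC1 sensing. Lower calls in eIF2 control were 2 with DESeq2 and both edgeR scalings and 4 with at least 10 reads in every sample. Lower calls in mTORC1 sensing were 5 with at least 10 reads in every sample and 6 with both edgeR scalings, which called 5 other transporters higher. The cause was not tested.

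Same-numbered samples did not deviate together (r = 0.0133 over 10544 genes). A single correlation from 2 samples per group cannot tell whether the samples were paired. With the replicate block, 6996 genes were called, of the set 2 higher and 0 lower, and 3 lower in eIF2 control and 5 in mTORC1 sensing.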
